A study of Gallus gallus with 18 samples.

Results

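The genes described here are the 6 that make serine from a glycolytic intermediate and break glycine down in mitochondria: PHGDH, PSAT1 and PSPH for serine synthesis, and GLDC, AMT and GCSH for glycine cleavage. They were taken by gene name from the deposited table, which lists 23741 genes, and all 6 had counts in all 18 libraries. The libraries are poly(A) RNA-seq of Arbor Acres broiler breeders and their chicks, in 6 groups of 3. The roosters ate corn and soybean meal diets that differed in folic acid, with 5 mg per kg in the folic acid-excess group (FE) and 0.25 mg per kg in the folic acid-control group (FCON). Rooster liver and sperm are labelled as taken at 35 weeks, except FE sperm replicate 3, which is labelled 36 weeks. Offspring liver came from 1-day-old chicks and is grouped by the diet of the father; each library is a pool of RNA from 4 chicks, and the hens that mothered them were fed folic acid in their own diet. The series asks how a lifelong excess of folic acid in the father bears on liver and sperm in 2 generations.

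In serine synthesis, PHGDH oxidises 3-phosphoglycerate, PSAT1 moves an amino group from glutamate onto the product, and PSPH removes the phosphate to give serine. Serine hydroxymethyltransferases then split serine into glycine and a one-carbon unit carried by tetrahydrofolate. Glycine cleavage yields a further one-carbon unit: GLDC decarboxylates glycine and hands the aminomethyl group to the lipoyl arm of GCSH, AMT releases it as ammonia and methylene-tetrahydrofolate, and DLD reoxidises the arm. Both routes therefore feed the folate cycle that the diet addresses, and in birds glycine is also drawn into purines, the route by which nitrogen leaves as uric acid.

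In the coordinates of the deposited table, whose genome build is not given in the sources used here, PHGDH (gene 424381) lies on chromosome 8 at 4633297-4636633, PSPH (417540) on chromosome 19 at 5020299-5035715, AMT (395566) on chromosome 12 at 2857669-2859893 and GCSH (415803) on chromosome 11 at 15410698-15418022, all on the minus strand. PSAT1 (427263, plus strand, 37974715-37990038) and GLDC (374222, minus strand, 28030054-28068435) are on chromosome Z, of which roosters carry a pair and hens a single copy. PSPH shares 555 bases with CCT6A on the opposite strand, and because no strand marking is stated, reads from that stretch cannot be assigned to either gene. CCT6A, a chaperonin subunit, was far lower than PSPH in rooster liver, at a mean of 29.0 scaled FPKM in FE and 27.5 in FCON. Scaled FPKM here is the deposited FPKM divided by the TMM scaling factor of the library, a value per gene length that can be compared between genes and between libraries.

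Library totals ran between 17.0 and 43.1 M estimated counts. Genes of chromosome W, found in hens and not in roosters, took 0 to 2.07 CPM (counts scaled to the library total) in the rooster livers labelled FE but 1015 to 1117 CPM in those labelled FCON, so the FCON livers go against their rooster label and are called the libraries labelled FCON wherever a direction is drawn. Among the offspring pools, pool 2 of each group held W counts at 1299 CPM (FE) and 963 CPM (FCON), and the other 4 held at most 9.34 CPM. Nuclear ribosomal RNA took 32.8 to 60.5% of counts in rooster livers labelled FE and 3.02 to 8.75% in those labelled FCON, which presses down every deposited FPKM of the FE livers. Marker sums, unlike the W values, are in scaled CPM here and below, that is CPM divided also by the TMM scaling factor of the library. They are written as CPM. All 16 hepatocyte markers were detected in every liver group. Their summed level was 42774 to 65860 CPM in rooster livers labelled FE, 89921 to 90984 CPM in those labelled FCON, and 22572 to 50963 CPM in the offspring pools. Of 14 sperm and spermatid markers 10 were matched, summing to 228 to 1319 CPM in sperm and at most 44.0 CPM in any liver. Diet, the sex the W counts point to and RNA make-up cannot be told apart in rooster liver, and p-values measure only the spread between these few libraries, which may be technical.

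In liver the 6 genes covered a wide range. PSPH was the most abundant in rooster liver, at 1698 ± 300.2 scaled FPKM in FE and 1822 ± 12.4 in FCON (SD, n = 3 each), with only 31 genes above it in FE and 25 in FCON. That count leaves out ribosomal RNA genes and covers genes with FPKM 1 or more in all 3 libraries, 6945 in FE and 9804 in FCON. PHGDH was second of the 6 in rooster liver. It was the most abundant of the 6 in offspring liver, at 573 ± 212 scaled FPKM in paternal FE pools and 933 ± 66.0 in paternal FCON pools. GLDC was the lowest of the 6 in every group, with liver means between 18.9 scaled FPKM in rooster FE and 76.6 in offspring FCON, although AMT and GCSH, which work in the same system, stood between 161 and 351 scaled FPKM in the same livers. Summed over the 3 genes of each route, serine synthesis reached 2721 ± 308 scaled FPKM in rooster FE liver and 3374 ± 21.8 in rooster FCON liver, and glycine cleavage reached 358 ± 23.1 in rooster FE liver and 578 ± 4.87 in rooster FCON liver. In offspring liver the serine synthesis sum was 1032 ± 519 (FE) and 1615 ± 421 (FCON), and the glycine cleavage sum was 657 ± 109.7 (FE) and 714 ± 194 (FCON).

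**Figure D1:**
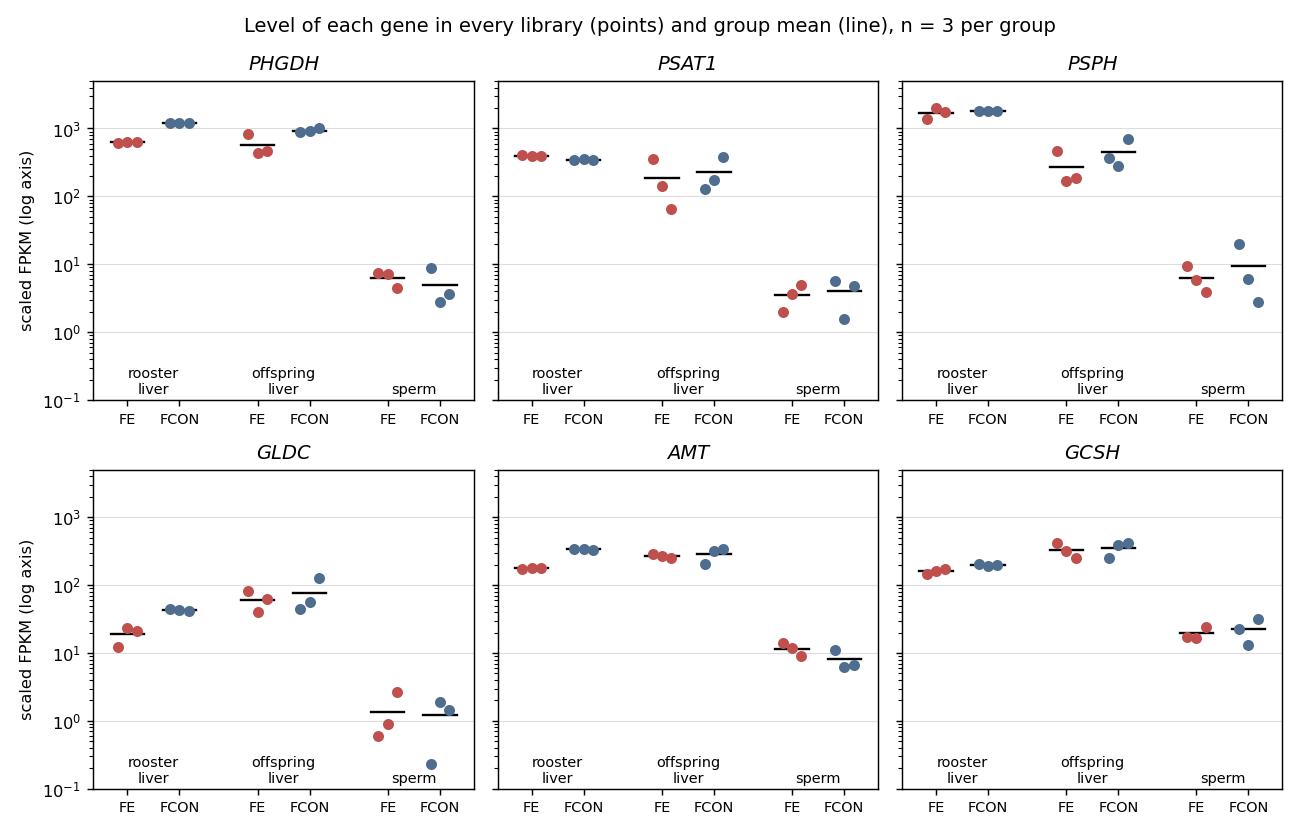
Level of each gene in scaled FPKM (log axis) in every library, with FE and FCON side by side for rooster liver, offspring liver and sperm; points are libraries and lines are group means (n = 3). The rooster points lie close together except in FE for GLDC (1.95-fold from lowest to highest) and PSPH (1.43-fold), the offspring points spread most for PSAT1, PSPH and GLDC, and every sperm point lies below every liver point of the same gene.

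The order of groups differed between the genes. PHGDH was highest in the libraries labelled rooster FCON, then offspring FCON, rooster FE and offspring FE liver, and the neighbours rooster FE and offspring FE overlapped. PSAT1 was highest in rooster FE liver (399 ± 4.27 scaled FPKM), above rooster FCON without overlap (348 ± 3.96), while rooster FCON, offspring FCON and offspring FE overlapped as neighbours. PSPH separated by age: both rooster groups lay above both offspring groups, and within each age the groups overlapped. GLDC and GCSH ran the other way, with offspring FCON and offspring FE (overlapping) above rooster FCON, which was above rooster FE without overlap. For GLDC, offspring FE and rooster FCON overlapped as well. AMT was lowest among livers in rooster FE (178 ± 2.97 scaled FPKM), and the other 3 liver groups overlapped as neighbours (269 to 337).

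In rooster liver, 3 of the 6 genes fell and 1 rose in the libraries labelled FE relative to those labelled FCON. PHGDH, GLDC and AMT were lower by 0.83 to 1.09 on the log2 scale, PSAT1 was slightly higher (its sign turns on deposited FPKM), and PSPH and GCSH did not pass the test. These 4 calls stand against a background in which 41.5% of the 10291 genes tested were called, 20.4% higher and 21.1% lower in FE, so changes were common in this comparison whichever gene was looked at. In bulk tissue, fewer cells of a type and less RNA per cell cannot be told apart.

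PHGDH, the first enzyme of serine synthesis, stood at 615, 632 and 627 scaled FPKM in the 3 rooster livers labelled FE, against 1200, 1196 and 1218 in those labelled FCON. The groups were far apart and each was tight, the highest library lying at 1.03 times the lowest in FE and 1.02 times in FCON. Its log2 difference was -0.86 (SE 0.06, adjusted p = 0.000101). PSAT1, the next enzyme, had 402, 400.2 and 394 scaled FPKM in FE livers, against 344, 352 and 348 in FCON livers. It was higher in FE in all 3 libraries, with a log2 difference of 0.29 (SE 0.06, adjusted p = 0.00866), whereas on deposited FPKM, where all genes tested shift by a median of -0.76 on the log2 scale, its difference was -0.68 (limma, adjusted p = 0.053). The PSAT1 call also ended when any 1 of the 3 FCON libraries was left out (adjusted p 0.118 without replicate 1, 0.095 without replicate 2 and 0.102 without replicate 3).

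PSPH, the last enzyme of serine synthesis, had 1385, 1983 and 1726 scaled FPKM in FE livers, against 1823, 1809 and 1833 in FCON livers. The FE values lay on both sides of the FCON values, and the log2 difference was -0.01 (SE 0.13, adjusted p = 0.949); it was 0.01 with the size factors of DESeq2. On deposited FPKM, with the shift over all genes given above, it was -0.997 and -0.998 with the 2 pseudocounts and passed (limma, adjusted p 0.0262 and 0.0368). By the count test the 3 genes of one route thus gave a lower value for the first enzyme, a slightly higher one for the second and no call for the third.

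In glycine cleavage, GLDC, the glycine decarboxylase, had 12.2, 23.7 and 20.9 scaled FPKM in FE livers, against 43.8, 43.0 and 42.2 in FCON livers. All 3 FE values were below all 3 FCON values, and its log2 difference was -1.09 (SE 0.23, adjusted p = 0.00917), the largest among the 6. AMT, the aminomethyltransferase, had 175, 178 and 181 scaled FPKM in FE livers, against 335, 343 and 333 in FCON livers. The AMT groups were again tight and apart, with a log2 difference of -0.83 (SE 0.06, adjusted p = 0.000142). GCSH, the lipoyl carrier protein, had 145, 162 and 175 scaled FPKM in FE livers, against 205, 188 and 201 in FCON livers. Its groups did not overlap, but its log2 difference of -0.21 (SE 0.09, adjusted p = 0.112) did not pass; it passed narrowly when other filters on low values were used (adjusted p 0.0478 and 0.0494), with log2 differences of -0.30 and -0.33. On deposited FPKM it also passed, at -1.18 and -1.19 (limma, adjusted p 0.00871 and 0.0128). In a fit of all 18 libraries together PHGDH (-0.94, adjusted p = 0.134) and GLDC (-1.18, adjusted p = 0.257) no longer passed, and AMT did.

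**Figure D2:**
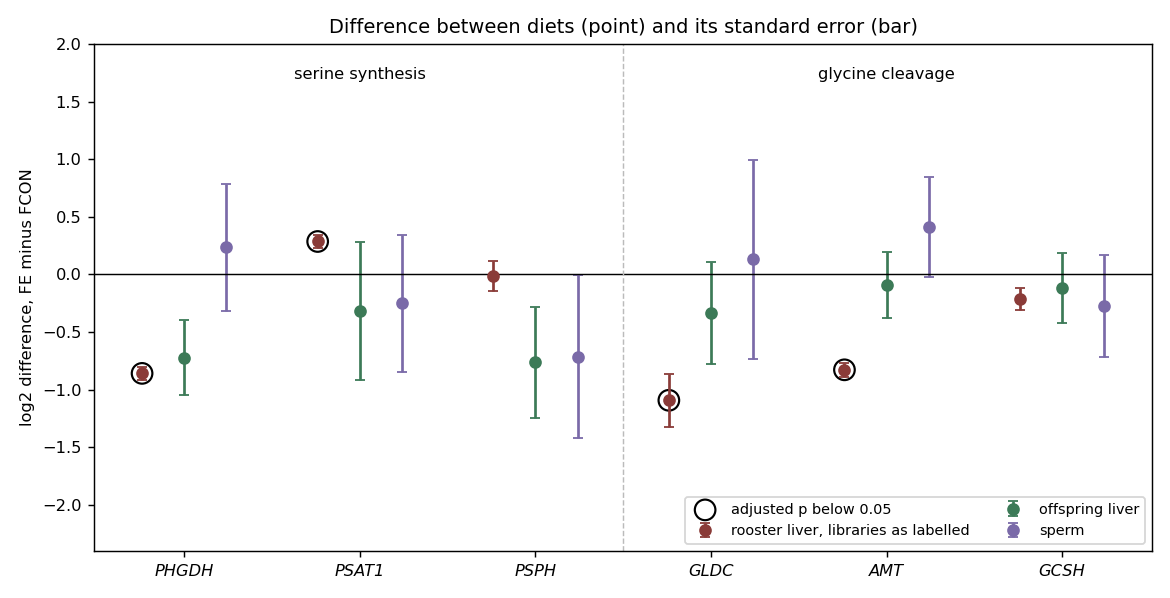
Log2 difference between diets, FE minus FCON, for each gene in rooster liver (libraries as labelled), offspring liver and sperm; points are edgeR estimates, bars are their standard errors and rings mark an adjusted p below 0.05 (3 libraries per group). Rings appear in rooster liver only, below 0 for PHGDH, GLDC and AMT and above 0 for PSAT1, whose sign turns on deposited FPKM; the offspring bars are wide and all 6 offspring points lie below 0.

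Ratios between members within a library do not depend on library scaling. PHGDH per PSAT1 was 1.57 in rooster livers labelled FE and 3.46 in those labelled FCON (geometric means of FPKM ratios, n = 3 each), a log2 difference of -1.14 with no overlap. PHGDH per PSPH was 0.372 (FE) and 0.661 (FCON), and PSAT1 per PSPH was 0.237 (FE) and 0.191 (FCON), both without overlap. Within glycine cleavage, AMT per GCSH was 1.11 (FE) and 1.70 (FCON) and GLDC per GCSH was 0.114 (FE) and 0.217 (FCON), again without overlap, while GLDC per AMT overlapped at 0.102 (FE) and 0.128 (FCON). The two-sided exact permutation p was 0.1 for the 5 ratios without overlap, the smallest that 3 against 3 can give, and 0.4 for GLDC per AMT. These 6 ratios were each computed in 3 diet comparisons, and in offspring liver and sperm every p was between 0.3 and 1.

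PSAT1 and GLDC need the Z chromosome beside them. Over 412 Z genes tested, the median log2 difference in rooster liver was 0.51, with 158 higher and 48 lower in the libraries labelled FE, against a median of -0.05 over 9734 genes on numbered chromosomes. The PSAT1 value of 0.29 lay above 166 of the Z genes and below 245, so it was not high for a Z gene. The GLDC value of -1.09 lay above only 34 of the Z genes and below 377. The part of Z dosage in the PSAT1 call was not tested.

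**Figure D3:**
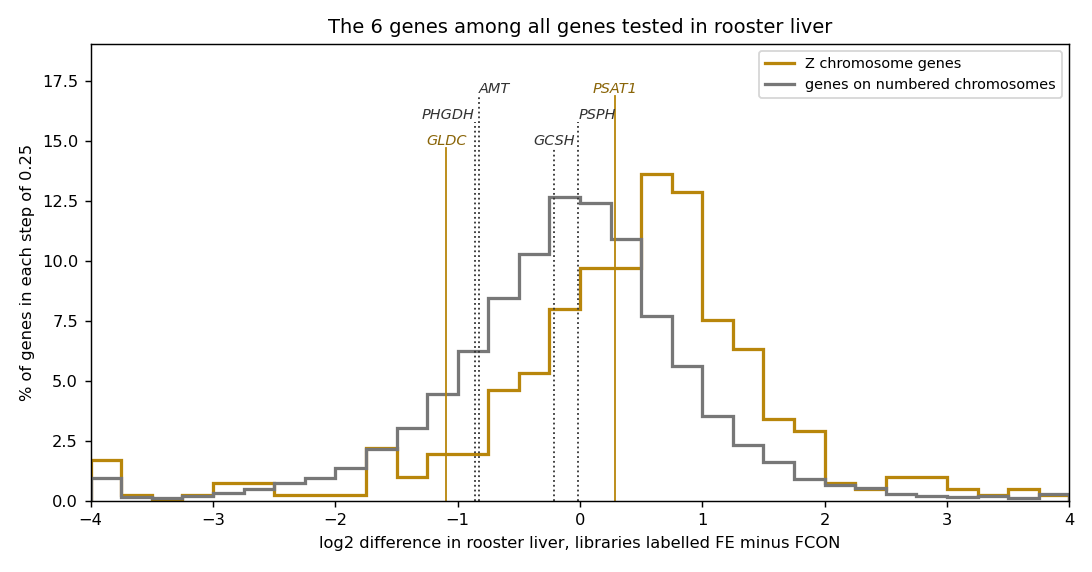
Share of genes in each step of 0.25 of the log2 difference in rooster liver, libraries labelled FE minus FCON, for Z chromosome genes and for genes on numbered chromosomes; the outermost steps also hold all values beyond them, and lines mark the 6 genes (solid for the Z genes GLDC and PSAT1). The Z curve sits to the right of the other, with PSAT1 left of its peak and GLDC in its low tail; PSAT1 is positive on this scale and negative on deposited FPKM.

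Cell type markers moved in the same libraries. Of 15 hepatocyte markers tested in rooster liver, 12 fell and 2 rose in the libraries labelled FE, with a median log2 difference of -1.22. Of 7 macrophage markers tested 6 rose, with summed levels of 684 to 711 CPM in FE and 311 to 319 CPM in FCON. Of 7 lymphocyte markers tested 5 rose and 1 fell, with summed levels of 375 to 469 CPM in FE and 129 to 134 CPM in FCON. PHGDH and AMT fell by less than the hepatocyte median, and PSAT1, PSPH and GCSH lay well above it. GLDC, at -1.09 (SE 0.23), was not set apart from that median and ranged from -1.27 to -0.84 without 1 library. The part of cell make-up in these differences was not tested.

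Genes beside AMT and PSPH on the chromosome had values of their own in the same comparison. TCTA, 36 bases from AMT on the other strand, rose by 1.00 in rooster liver labelled FE on the log2 scale (SE 0.24, adjusted p = 0.0154), opposite to AMT. CCT6A, which overlaps PSPH, had a log2 difference of 0.17 there (SE 0.08, adjusted p = 0.153).

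The 5 lists of related genes, 64 of whose 71 symbols were matched, were also read in rooster liver, where the median log2 difference of all genes was -0.03. Of all 10291 genes tested there, 20.4% were called higher and 21.1% lower in the libraries labelled FE. Of 12 tested users and makers of serine, 3 rose and 4 fell in the libraries labelled FE (median -0.48); CBS, which joins serine to homocysteine, rose by 1.27 (adjusted p = 0.00093) and PTDSS2, a phosphatidylserine synthase, fell by 1.06 (adjusted p = 0.0143). Of 11 tested users and makers of glycine, 2 rose and 4 fell (median -0.37); ALAS1, the first enzyme of haem synthesis, fell by 3.01 (adjusted p = 0.00011), DAO, a D-amino acid oxidase, fell by 1.39 (adjusted p = 9.67e-05), and GCAT, which makes glycine from a threonine product, rose by 0.91 (adjusted p = 0.000286). Of 12 tested genes of lipoylation and lipoyl enzymes, 5 rose and 1 fell (median 0.32), among them DLAT, the lipoyl subunit of pyruvate dehydrogenase, which rose by 2.29 (adjusted p = 3.25e-05).

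DLD, the remaining protein of the glycine cleavage system, had 34.8 ± 7.35 scaled FPKM in rooster FE and 35.0 ± 0.742 in rooster FCON liver and did not pass (log2 difference 0.08, adjusted p = 0.7). SHMT1, the cytosolic serine hydroxymethyltransferase, had 229 ± 66.8 (FE) and 340 ± 3.55 (FCON) and did not pass either (-0.48, adjusted p = 0.0893). Of 10 tested transporters, 1 rose and 3 fell (median -0.26); SLC38A3, a glutamine carrier, fell by 1.59 (adjusted p = 0.000209), and SFXN1, known in human cells as a mitochondrial serine carrier, rose by 0.69 (adjusted p = 0.00151). ATF4 is a transcription factor known in human and mouse cells to raise PHGDH, PSAT1 and PSPH. Of 10 tested genes of its programme 4 rose and 0 fell in the libraries labelled FE (median 0.44): PCK2 by 2.01, DDIT3 by 1.75, SESN2 by 1.27 and ATF4 itself by 0.47 (adjusted p 2.72e-05, 0.00107, 0.0245 and 0.00971). Of the 10 estimates, 6 were positive and 4 negative. Among those that did not pass were ASNS (0.41, adjusted p = 0.27) and CHAC1 (-0.13, adjusted p = 0.875). In the same livers PHGDH fell, PSAT1 rose by 0.29 (negative on deposited FPKM) and PSPH had -0.01. The part of ATF4 in these values was not tested. Calls among the transporters and the ATF4 programme stand beside 20.4% of all genes tested called higher and 21.1% called lower.

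In offspring liver none of the 6 genes passed, and pools of the same group differed widely. All 6 were lower on average in paternal FE than in paternal FCON pools, PSPH and PHGDH by the most. That shared direction ended when some of the pools were left out. Without paternal FCON pool 3 the log2 differences of PSAT1 (0.27), GLDC (0.25) and AMT (0.0269) were positive, and those of PHGDH, PSPH and GCSH stayed negative. Without paternal FE pool 3, PSAT1 (0.0861) and GCSH (0.00964) were positive. Without both pools numbered 2, AMT (0.0118) and GCSH (0.00669) were. No gene at all passed in this comparison by edgeR (percent called 0 of 9700 genes, with 679 at an unadjusted p under 0.05, against 38 called by DESeq2 and 0 or 1 by limma on FPKM), and 0 of the 6 had an unadjusted p under 0.05.

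PHGDH came closest, with 817, 443 and 459 scaled FPKM in paternal FE pools 1, 2 and 3, against 887, 903 and 1009 in paternal FCON pools 1, 2 and 3. The groups did not overlap, and the log2 difference was -0.72 (SE 0.32, unadjusted p = 0.0511, adjusted p = 0.701). PSPH had 460, 168 and 189 scaled FPKM in FE pools, against 373, 281 and 712 in FCON pools. These groups overlapped, and the difference was -0.76 (SE 0.48, adjusted p = 0.756). PSAT1 had 354, 141 and 64.5 scaled FPKM in FE pools, against 127, 173 and 381 in FCON pools, with a log2 difference of -0.32 (SE 0.60, adjusted p = 0.905). Its pools within a group differed by more than the groups did.

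GLDC had 81.0, 39.7 and 62.1 scaled FPKM in paternal FE pools, against 44.2, 56.1 and 129 in paternal FCON pools, with a log2 difference of -0.34 (SE 0.44, adjusted p = 0.856). AMT had 288, 272 and 249 in FE pools, against 203, 316 and 338 in FCON pools, a difference of -0.09 (SE 0.29, adjusted p = 0.945). GCSH had 410, 316 and 254 in FE pools, against 254, 388 and 413 in FCON pools, a difference of -0.12 (SE 0.30, adjusted p = 0.933). In all 3 genes the groups overlapped, and the estimates for GLDC, AMT and GCSH were positive on deposited FPKM, where all genes tested shift by a median of 0.34 on the log2 scale.

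The pools varied in a partly shared way. Pearson correlations between members over the 6 pools ran from 0.28 (PHGDH with AMT) to 0.89 (PSAT1 with GCSH). Paternal FCON pool 3 had the highest scaled FPKM of the 6 pools for all 6 genes, whereas 25.2% of all genes tested peaked in that pool. On deposited FPKM it was the highest for 2 of the 6 and for 9.48% of all genes tested. Paternal FE pool 1 was the highest FE pool for all 6 genes, as for 35.1% of all genes tested. On deposited FPKM it was so for 5 of the 6 and for 17.3% of all genes tested, AMT being higher in FE pool 2. From the lowest to the highest pool, PSAT1 spanned 5.90-fold, PSPH 4.24-fold, GLDC 3.26-fold and PHGDH 2.28-fold, against 1.67-fold for AMT and 1.62-fold for GCSH. SHMT1 was likewise highest in FE pool 1 (927) and FCON pool 3 (727), with 212 to 512 scaled FPKM in the other 4 pools, and DLD in FCON pool 3 (113) and FE pool 1 (84.0), with 46.3 to 67.6 in the others. In the same pools FE 1 and FCON 3, erythroid markers had their lowest sums (118 CPM each, against 307 to 1421 CPM in the others), and the hepatocyte marker sum was 44322 CPM in FE pool 1 and 22572 CPM, the lowest of all, in FCON pool 3. The part of cell make-up in this spread was not tested.

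**Figure D4:**
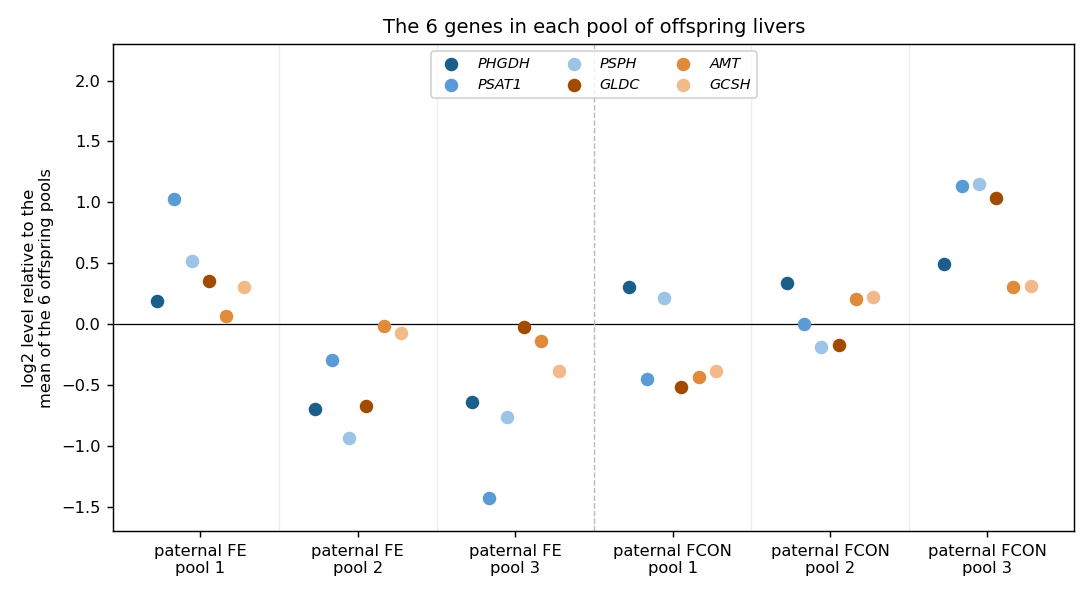
Log2 level of each gene in the 6 pools of offspring livers relative to its mean over those pools, with paternal FE pools left and paternal FCON pools right; each point is 1 gene in 1 pool of 4 chicks, on scaled FPKM. All 6 genes are above their mean in FE pool 1 and highest in FCON pool 3, and PSAT1 covers the widest range.

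In the 5 lists of related genes, none was called in offspring liver. All 11 tested users and makers of glycine had negative estimates, with a median of -0.41 against -0.01 over all genes tested; TDH, threonine dehydrogenase, had -1.04 and GCAT -0.91 (adjusted p = 0.701 each). In the ATF4 programme 9 of 10 estimates were negative (median -0.52), PCK2 having -1.22 (adjusted p = 0.701). The PCK2 value leaned on paternal FCON pool 3, at 288 scaled FPKM. FCON pools 1 and 2 had 62.6 and 91.7, and the paternal FE pools 45.4 to 72.6. PTDSS1 and SLC38A2 had positive estimates of 1.06 and 1.71 (adjusted p = 0.701 each).

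The difference between the diet effect in rooster liver and that in offspring liver was tested directly. None of the 6 genes passed, in a comparison where 18.7% of 11002 genes did. AMT came closest, at -0.75 (SE 0.27, unadjusted p = 0.0174, adjusted p = 0.0746): lower in FE by 0.83 in rooster liver and by 0.09 in offspring liver. GLDC had -0.77 (SE 0.55, adjusted p = 0.355), PSPH 0.74 (SE 0.56, adjusted p = 0.384), PSAT1 0.59 (SE 0.70, adjusted p = 0.599), GCSH -0.11 (adjusted p = 0.843) and PHGDH -0.15 (SE 0.31, adjusted p = 0.771). The PHGDH estimates behind this were -0.86 in roosters, which passed, and -0.72 in offspring, which did not. On deposited FPKM, limma called the difference of effects for AMT (-2.14), GLDC (-2.21), GCSH (-1.48) and PHGDH (-1.47). Adjusted p was 0.000818, 0.00696, 0.0117 and 0.00844 for these genes in that order. On that scale all genes tested shift between diets by a median of -0.76 in rooster liver and 0.34 in offspring liver. The estimates of the 6 genes for the difference of effects moved by a median of -1.36 from those of the count test. Without paternal FCON pool 3, AMT (-0.88, adjusted p = 0.032) and GLDC (-1.38, adjusted p = 0.0493) passed. Among the related genes, PCK2 (3.21, adjusted p = 0.00552), DLAT (3.23, adjusted p = 0.00255), GCAT (1.81, adjusted p = 0.00382), CBS (1.60, adjusted p = 0.0336) and ALAS1 (-2.54, adjusted p = 0.0198) passed in this contrast with all liver libraries in the fit.

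In sperm the 6 genes were low and did not differ detectably between diets. GCSH was the most abundant, with 17.3, 16.7 and 24.5 scaled FPKM in FE sperm, against 22.2, 12.9 and 32.0 in FCON sperm (log2 difference -0.27, SE 0.44, adjusted p = 0.932). AMT had 13.8, 11.7 and 8.94 scaled FPKM in FE sperm, against 11.2, 6.27 and 6.67 in FCON sperm (0.41, SE 0.43, adjusted p = 0.908). The groups overlapped for both genes. PHGDH, PSPH and PSAT1 lay between 1.59 and 19.8 scaled FPKM over the 6 libraries, with log2 differences of 0.23, -0.71 and -0.25 and adjusted p of 0.904 to 0.955. GLDC rested on 12 to 279 counts per library and 0.235 to 2.64 scaled FPKM (0.13, SE 0.87, adjusted p = 0.985). No gene passed in sperm by edgeR (percent called 0 of 8811 genes, 296 at an unadjusted p under 0.05 and none of the 6 among them); DESeq2 called 0 and limma 1. The 5 lists of related genes had 0 called in sperm as well.

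Rooster liver was then set against the liver of day-old chicks on the same paternal diet. Age, single birds against pools of 4, ribosomal RNA content and the W counts go together here and cannot be told apart. In FE the W counts were high in offspring pool 2 only. In FCON they were high in all libraries labelled rooster and in offspring pool 2. Nuclear ribosomal RNA took 4.70 to 20.4% of counts in offspring FE pools and 16.4 to 29.1% in offspring FCON pools. Z genes had a median log2 difference between the ages of 0.10 in FE and -0.31 in FCON. PSPH was much higher in the older livers, by 2.67 in roosters fed FE (SE 0.43, adjusted p = 0.00338) and by 1.92 in the libraries labelled FCON (SE 0.35, adjusted p = 0.0101), from the values given for each library above. GCSH was lower than in chicks in both, with -0.99 in roosters fed FE (SE 0.24, adjusted p = 0.017) and -0.91 in the libraries labelled FCON (SE 0.21, adjusted p = 0.0215). GLDC was lower in roosters on FE, at -1.65 (SE 0.35, adjusted p = 0.00987), and had -0.91 in the libraries labelled FCON (SE 0.39, adjusted p = 0.124). These are 3 of 6 genes in FE, where 27.4% of 9847 genes were called, and 2 of 6 in FCON, where 29.4% of 10339 were.

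The other members did not pass between the ages. PSAT1 had 1.13 in FE (SE 0.52, adjusted p = 0.137) and 0.53 in FCON (SE 0.39, adjusted p = 0.339). AMT had -0.56 in FE (SE 0.19, adjusted p = 0.0589) and 0.16 in FCON (SE 0.22, adjusted p = 0.622). PHGDH had 0.16 in FE (SE 0.28, adjusted p = 0.706) and 0.29 in FCON (SE 0.15, adjusted p = 0.191). By mean level, PSPH ranked 1 of the 6 in both rooster groups and 3 (FE) or 2 (FCON) in chicks, GCSH ranked 5 in roosters and 2 (FE) or 3 (FCON) in chicks, and PSAT1 ranked 3 in roosters and 5 in chicks; PHGDH took the first place in chicks. Without FCON pool 3, PSAT1 (1.12, adjusted p = 0.00447) and PHGDH (0.33, adjusted p = 0.0232) passed in FCON; without FE pool 1, PSAT1 (1.94, adjusted p = 0.0108) passed in FE, and without FE pool 3, AMT did (-0.64, adjusted p = 0.0375). GCSH no longer passed in FE without rooster replicate 2 or 3 (adjusted p 0.0552 and 0.0562), nor in FCON without any 1 of the libraries labelled rooster FCON (0.113, 0.126 and 0.114). On deposited FPKM, all genes tested shift between the ages by a median of 0.41 in FCON and -0.72 in FE on the log2 scale. GCSH did not pass there in FCON (-0.39, limma, adjusted p = 0.111). By limma on deposited FPKM, PHGDH (0.77), PSAT1 (1.17) and AMT (0.67) passed in FCON and AMT (-1.47) passed in FE (adjusted p 0.00882, 0.029, 0.021 and 0.00287). The hepatocyte marker median between the ages was -0.70 in FE and 0.65 in FCON, and that of the lymphocyte markers 4.04 in FE and 2.01 in FCON; their part in these differences was not tested.

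Against rooster liver, sperm held far less of all 6 transcripts. In FCON, W genes took 1015 to 1117 CPM in the livers and 9.74 to 22.4 CPM in sperm. Tissue and the sex the W counts point to cannot be told apart in that comparison, nor in the FCON percentages below. All 6 were called lower in sperm on both diets, where 52.8% of 9374 genes were called in FE (22.9% lower in sperm) and 49.6% of 10765 in FCON (25.5% lower). The serine synthesis genes had log2 differences of -6.60 (PHGDH), -6.78 (PSAT1) and -8.04 (PSPH) in FE, and -7.89, -6.44 and -7.55 in FCON, for the same genes in that order. The glycine cleavage genes had GLDC -3.71, AMT -3.94 and GCSH -3.02 in FE, and -5.10, -5.37 and -3.13 in FCON. Adjusted p was between 2.93e-05 and 0.00234 for these 12 values, and the difference between the routes was not tested. GLDC had deposited FPKM of 0.35, 0.33 and 2.85 in FE sperm and 0.11, 2.05 and 1.19 in FCON sperm. It therefore met the filter of FPKM 1 in 3 libraries only through the livers, where it is high. Its calls lower in sperm are given as values only.

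Expressed as the mean in sperm relative to rooster liver, the serine synthesis genes stood at 1.02% (PHGDH), 0.884% (PSAT1) and 0.376% (PSPH) in FE, and 0.417%, 1.15% and 0.524% in FCON. The summed hepatocyte markers stood at 0.623% in FE and 0.487% in FCON, within the range of the 3 serine synthesis genes. In FCON the marker sum was 903, 188 and 233 CPM in sperm replicates 1, 2 and 3. Without replicate 1 its percentage was 0.233%. That replicate was also the highest for PHGDH, PSAT1 and PSPH, which without it stood at 0.265%, 0.909% and 0.243%. The markers were then below all 3 genes, so their place within the range rested on that replicate in FCON. The GLDC percentage in FE leaned on replicate 3, with 3.92% when it was left out. GLDC (7.27% in FE and 2.81% in FCON), AMT (6.45% in FE and 2.39% in FCON) and GCSH (12.1% in FE and 11.3% in FCON) stood above the hepatocyte markers on both diets, also without any 1 sperm library. Marker lists of other cells also had counts in sperm. Those of genital tract epithelium summed to 179 to 485 CPM in FE sperm and 273 to 530 CPM in FCON sperm. Livers held 503 to 915 CPM of the same list, so it is not specific to that epithelium. Lymphocyte markers summed to 177 to 464 CPM in FE sperm and 72.4 to 300 CPM in FCON sperm. Most of this was GNLY, with means of 257 CPM (FE) and 137 CPM (FCON). Each other lymphocyte marker had a sperm mean of at most 7.36 CPM, and PTPRC had 0.864 (FE) and 1.90 (FCON). The part of such cells in the sperm levels was not tested. The sum of the 3 glycine cleavage genes in sperm was 32.4 ± 3.44 scaled FPKM in FE and 31.6 ± 9.64 in FCON, above the serine synthesis sum of 16.3 ± 2.67 (FE) and 18.6 ± 13.5 (FCON); in every liver group the mean serine synthesis sum was the higher one. The FE sperm ranges were apart, 29.3 to 36.1 for glycine cleavage and 13.4 to 18.7 for serine synthesis, but the FCON ranges overlapped, at 21.1 to 40.1 and 10.5 to 34.2, and in FCON replicate 1 serine synthesis was slightly the higher.

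**Figure D5:**
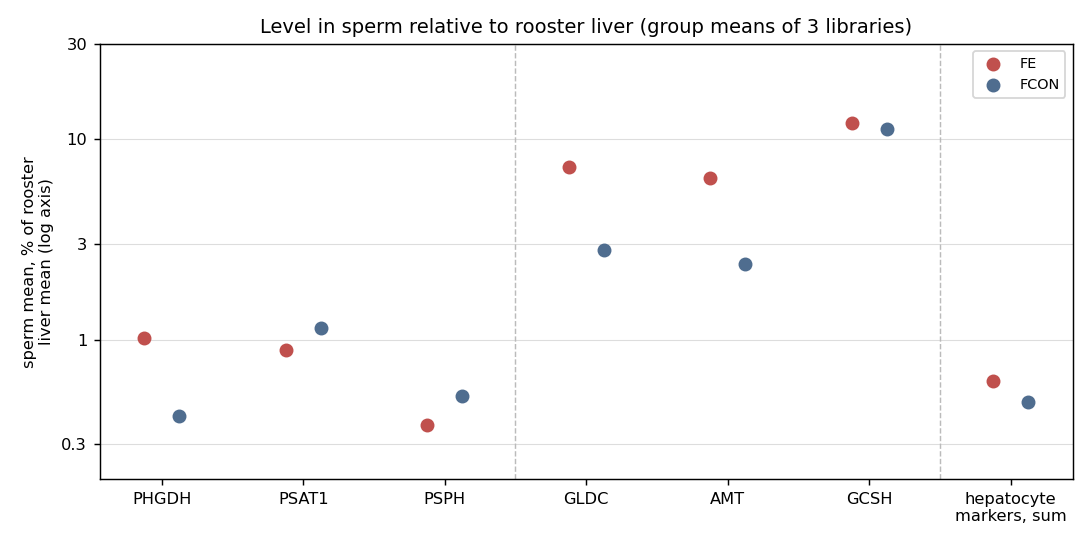
Mean level in sperm as a percentage of the mean in rooster liver, libraries as labelled (log axis), FE left of FCON. Values are for each gene and for 16 summed hepatocyte markers. Each point is a ratio of group means of 3 libraries, on scaled FPKM for genes and scaled CPM for markers. PHGDH, PSAT1 and PSPH lie near the hepatocyte markers at about 1% or less, and GLDC, AMT and GCSH lie higher, up to 12.1%.

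Across the 12 liver libraries, which fall into 4 groups and share the scaling, the genes most like each member were listed by Pearson correlation of log2 scaled CPM among 10993 genes. PSPH was most like PRDX6, a peroxiredoxin (0.980), MCUB (0.968) and RGN (0.967). GCSH was most like the transcription factor KLF9 (0.972), ENY2 (0.970) and TPI1, a glycolytic enzyme (0.969), and GLDC like MRPS14 (0.948), GLUD1, glutamate dehydrogenase (0.944), and SAMM50 (0.941). AMT was most like ASMTL (0.971), the citrate carrier SLC25A1 (0.959) and LONP2 (0.947), and PHGDH like TST (0.918), ACAT1 (0.896) and MCCC2L (0.889). PSAT1 was most like GABARAPL2 (0.940), C26H6orf106 (0.939) and HMGCS1, a sterol synthesis enzyme (0.915). No member was among the 3 genes most like another; between members the correlation was highest for GLDC with GCSH (0.850) and PSAT1 with PSPH (0.837), and lowest for PSPH with GCSH (-0.702).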

How the data were processed

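The authors deposited 1 table with an FPKM and an estimated count, a whole number, for each gene in 18 libraries of poly(A) RNA. Per the submitters' processing notes, the authors used cutadapt, HISAT2 and StringTie; the sources used here give no versions, settings or genome build. FPKM, deposited relative to each library's total, moves with ribosomal RNA content, so tests used the estimated counts deposited by the authors: edgeR 4.0.16 (R 4.3.3), quasi-likelihood test, TMM scaling within each comparison, a filter of FPKM 1 or more in 3 or more of the libraries compared, Benjamini-Hochberg adjustment over all genes tested, threshold 0.05. Adjusted p is that of edgeR unless another tool is named, and SE is the log2 difference divided by the square root of F. Levels use TMM factors over all 18 libraries, so their ratios differ slightly from the fitted differences. Ratios were tested by exact permutation. Alternatives used DESeq2 1.42.0 and limma 3.58.1 on log2(FPKM + 1) or log2(FPKM + 0.1). Percentages of the liver level in sperm were also computed without each sperm library, a choice made after the data were seen. The code was tested on simulated data. Replicates were separate birds or pools as labelled. Every pair of libraries of a group differed by more than sampling noise, which does not by itself show separate birds. Chi-square per degree of freedom was 21.1 to 22.9 in rooster livers labelled FCON and 22.7 to 57.8 in those labelled FE. It was 110 to 229 in offspring liver and 362 to 764 in sperm.

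The 6 genes and all lists were chosen with earlier results of these data known. From each list up to 4 called genes with the largest change are eligible to be named in each diet comparison, or, where none is called, the 2 with the smallest p; DLD and SHMT1, and the neighbours on the chromosome, were named after their values were seen; 1 neighbour is not reported here. Of 23741 gene IDs, 19402 matched a RefSeq gene table, used for chromosome names and symbols only. Replicate numbers gave residuals that correlated in all 3 pairs for sperm FE and FCON (0.119, 0.179 and 0.243), which takes these numbers as pairing; in the other comparisons 0 pairs exceeded 0.1. No sequences are shown because none were among the files used here.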

Additional observations from a re-analysis of the deposited data

How the results depend on the processing

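The calls of PHGDH, GLDC and AMT in rooster liver held under other scalings, filters and tools and without any 1 library; in a fit of all 18 libraries together, which shares 1 estimate of spread, only 1 of the 6 genes was called in rooster liver and 1 between the ages in FCON. Members called ranged without 1 library from 3 to 4 in rooster liver, 0 to 2 in the difference of effects, 2 to 4 between the ages in FE and 1 to 4 in FCON. With limma on FPKM, 4 were called in the difference of effects and 4 between the ages in FCON, and DESeq2 called 5 in FE. With the replicate block 3 were called in rooster liver and 1 between the ages in FCON, and no other count of members called changed, including sperm, whose numbers may pair. Estimates that changed sign with both pseudocounts of limma on FPKM, where rooster FE values are pressed down, were PSAT1 in rooster liver (-0.68), GLDC (0.17), AMT (0.35) and GCSH (0.30) in offspring liver, GLDC in sperm (-0.0337 and -0.00968), PSAT1 (-0.63) and PSPH (-0.62) in the difference of effects, and PHGDH between the ages in FE (-0.70). PSPH in rooster liver was 0.0059 with DESeq2 and its size factors; without both offspring pools numbered 2, AMT was 0.0118 and GCSH 0.00669 in offspring liver and PHGDH -0.0375 between the ages in FE. Except where construction shows it, the cause was not tested.

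Without 1 library, estimates with a change of sign ranged as follows: PSPH in rooster liver -0.12 to 0.13; in offspring liver PSAT1 -1.13 to 0.27, GLDC -0.59 to 0.25, AMT -0.27 to 0.0269 and GCSH -0.29 to 0.00964; in sperm PHGDH -0.0242 to 0.93, PSAT1 -0.60 to 0.13, PSPH -1.10 to 0.44, GLDC -0.34 to 0.50 (3 fits; it missed the filter in the others) and GCSH -0.53 to 0.0946; in the difference of effects PHGDH -0.32 to 0.17, PSAT1 -0.0105 to 1.42 and GCSH -0.24 to 0.0817; between the ages PHGDH -0.0375 to 0.45 in FE and AMT -0.0213 to 0.28 in FCON. Log2 ratios did so in offspring liver for GLDC per AMT (-0.41 to 0.14), GLDC per GCSH (-0.36 to 0.20), AMT per GCSH (-0.0639 to 0.18), PHGDH per PSAT1 (-0.77 to 0.0417) and PHGDH per PSPH (-0.30 to 0.29), and in sperm for GLDC per AMT (-1.39 to 0.55), GLDC per GCSH (-0.50 to 1.41) and PSAT1 per PSPH (-0.48 to 1.00). Genes called ranged over alternatives from 896 to 6228 in rooster liver (4269 in the fit reported), 0 to 38 in offspring liver, 0 to 182 in sperm, 654 to 5776 (2054) in the difference of effects, 1485 to 4538 (2700) and 783 to 4121 (3037) between the ages in FE and FCON, and 3378 to 6239 (4954) and 2742 to 6752 (5337) between sperm and liver in FE and FCON. Of 30 neighbouring pairs of groups in the order of levels, 24 kept their order on deposited FPKM. In rooster liver limma on FPKM and filterByExpr each called 5 members. Counts of 12 to 279 per library limit GLDC in sperm.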
